A study of Mus musculus with 36 samples.

Results

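The 9 genes described here are Atf3, Atf4, Atf5, Ddit3, Ddit4, Trib3, Chac1, Sesn2 and Gdf15, the transcription factors and classic targets of the integrated stress response together with the stress hormone Gdf15. They were chosen by name among the 32285 mouse gene IDs of a table of RNA sequencing read counts, and all 9 passed the filter on low counts in both cell lines studied. The lines were AT-3, derived from a mammary tumour of an MMTV-PyMT mouse, and E0771, derived from a mouse mammary adenocarcinoma. Each line was treated for 24 h in 6 ways, with 3 libraries per treatment and 36 in all: DMSO, the solvent; 10 µM NS11021, an opener of the BK potassium channel; 10 µM BMS204352, an opener of BK and KCNQ potassium channels; 40 mM KCl, which depolarizes the cell membrane; KCl with NS11021; and KCl with BMS204352. The series concerns potassium and calcium levels, the coactivator MRTFA and cell stiffness in cancer cells, and the comparisons here ask how the stress genes moved with each compound, with KCl and with both. Each line is a single cultured line, and the labels do not say whether the 3 libraries of a group came from separate cultures, so the p-values measure only the spread between these libraries.

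In the integrated stress response, kinases that sense amino acid shortage, unfolded protein in the endoplasmic reticulum (ER), viral RNA, or haem and mitochondrial trouble phosphorylate the translation factor eIF2. Protein synthesis slows in general, while the mRNAs of a few transcription factors, Atf4 and Atf5 among them, are translated more. Their proteins switch on genes for amino acid supply and tRNA charging, further factors such as Atf3 and Ddit3 (which encodes CHOP), the brakes Trib3, Ddit4 and Sesn2, the glutathione-degrading enzyme Chac1, and the secreted protein Gdf15, so the mRNA of Atf4 itself reports only part of the pathway. Several of these genes have other inputs too: Sesn2 and Gdf15 respond to p53, Ddit4 to hypoxia and glucocorticoids, and Atf3 to growth and calcium signals.

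ATF4 binds DNA together with C/EBP proteins at a composite site whose core can be written TGATGNAA, or TTNCATCA on the other strand. The promoter windows of RefSeq (build GRCm38.p6, 250 bases before to 50 bases after each start site) were searched for these letters on both strands. All 9 genes had a window, and 3 of the 9 held a match, Atf3, Chac1 and Trib3, against 3.97% of all 32851 windows and 4.51% of the 27025 genes with one. A match is a description of the letters and not a measured binding event. The 250 bases before the start are shown for the first pair, with the match in capitals, because both genes lie among those that moved with the compounds. The Atf3 stretch is chr1:191183334-191183583 on the minus strand, with its match at −110 to −103 relative to the start. This RefSeq start lies inside the longer GENCODE locus of Atf3, chr1:191170296-191218039. The Chac1 stretch is chr2:119350992-119351241 on the plus strand, with its match at −193 to −186.
Atf3: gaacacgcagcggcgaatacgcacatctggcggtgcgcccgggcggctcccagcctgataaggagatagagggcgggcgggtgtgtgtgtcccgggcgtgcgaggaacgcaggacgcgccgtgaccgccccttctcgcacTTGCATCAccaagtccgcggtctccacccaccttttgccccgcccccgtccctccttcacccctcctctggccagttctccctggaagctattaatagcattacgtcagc
Chac1: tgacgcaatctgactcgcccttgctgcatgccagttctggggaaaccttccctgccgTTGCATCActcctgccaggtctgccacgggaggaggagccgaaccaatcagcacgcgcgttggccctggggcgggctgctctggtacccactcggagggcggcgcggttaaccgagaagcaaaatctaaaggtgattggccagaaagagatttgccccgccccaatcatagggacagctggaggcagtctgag

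In Trib3 the match lay 14 to 21 bases after the RefSeq start of the window. By GENCODE vM21 the Trib3 gene, on the minus strand, begins at position 152344032, and the match lies before that start. The match is shown with 10 bases on either side. Beside it stand the matches of 5 genes from the lists of ATF4 targets: Asns, asparagine synthetase; Pck2, a mitochondrial carboxykinase; Got1, a transaminase; Gars, which charges tRNA with glycine; and Nupr1, a stress-induced chromatin protein.
Trib3: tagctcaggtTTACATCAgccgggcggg
Asns: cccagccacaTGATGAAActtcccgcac
Pck2: gccttcaaagTTACATCAgtatcttaca
Got1: attgcattggTTGCATCAtacaagcctc
Gars: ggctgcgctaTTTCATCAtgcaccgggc
Nupr1: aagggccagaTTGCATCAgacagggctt
The windows of Atf4, Atf5, Ddit3, Ddit4, Sesn2 and Gdf15 did not hold these letters. Among related gene lists, 5 of 8 tRNA synthetase genes with a window and 5 of 9 other ATF4 and CHOP targets held a match. So did 4 of 13 amino acid and one-carbon enzyme genes and 2 of 8 amino acid carriers. Of 18 genes of the unfolded protein response of the ER, 1 held a match. This gene, Herpud1, is also counted among the other ATF4 and CHOP targets, so these lists are not separate.

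By the GENCODE vM21 annotation of GRCm38, Atf3 lies at chr1:191170296-191218039, Atf4 at chr15:80255184-80257541, Atf5 at chr7:44812256-44816658, Ddit3 at chr10:127290774-127296288 and Ddit4 at chr10:59949669-59951834. Trib3 lies at chr2:152337422-152344032, Chac1 at chr2:119351229-119354381, Sesn2 at chr4:132492032-132510501 and Gdf15 at chr8:70629393-70632456. Exons of Ddit3 shared 4.73% of their bases with genes on the opposite strand, among them the tRNA synthetase gene Mars, and those of Atf5 shared 4.11% with Nup62 and Il4i1; the strand of counting is not given in the sources used here. A second gene ID with the symbol Ddit3 held 0 counts in every library. The other 7 genes overlapped no exon of another gene.

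The 18 libraries of AT-3 held 38.5 to 52.6 M counts each (M stands for mega) and those of E0771 31.2 to 47.9 M. The lowest value of any member, Chac1 at 6.46 counts per M of the library total (CPM) in a KCl library of E0771, rested on 216 counts. Of 7 markers of mammary epithelium, 5 averaged at least 1 CPM in AT-3 (summed level 1990 to 2870 CPM) and 1, Krt8, did in E0771 (140 to 228 CPM). In DMSO, Krt8 stood at 202 CPM in E0771 and 0.349 CPM in AT-3, the reverse of the other markers of this list. The 6 leukocyte markers summed to at most 4.45 CPM (Ptprc and Cd3e at 0 in AT-3, Adgre1 at 0 in E0771) and 5 endothelial markers to at most 4.34 CPM. Summed fibroblast markers ran from 37.2 to 69.7 CPM in AT-3 and from 216 to 259 CPM in E0771, where Dcn, Lum and Thy1 were listed at 0. Mitochondrial transcripts took 0.490% to 0.792% of counts in AT-3 and 0.522% to 1.03% in E0771, with the highest values in KCl with BMS204352 in both lines. Their part in the results was not tested, and in bulk RNA a change in the number of cells of a type cannot be told apart from a change in RNA per cell.

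One library stood apart in each of the 4 groups given BMS204352, replicate 3 of each. In AT-3 it held the highest level of 8 of the 9 genes both with BMS204352 alone and with KCl and BMS204352, and in E0771 it held the highest level of all 9 in both groups. Relative to the mean of the other 2 libraries, the median ratio over the 9 genes was 1.65 (AT-3, BMS204352), 1.22 (AT-3, KCl with BMS204352), 1.77 (E0771, BMS204352) and 1.55 (E0771, KCl with BMS204352). Atf3 in AT-3 with BMS204352 stood at 26.9, 32.4 and 92.3 CPM in the 3 libraries. These 4 libraries also widen the spread that all groups of a line share in the fit. Each count below is therefore given with all libraries and then without the 4, when the BMS204352 groups hold 2 libraries each. The 4 are described here by the levels of the 9 genes themselves, and leaving them out narrows the spread of those genes. Calls made only without the 4 depend on this choice and are not independent support. A gene was called at an adjusted p below 0.05 in edgeR's quasi-likelihood test. Where groups are said not to overlap, this describes their libraries only. The share of all genes without overlap was not computed, so non-overlap is not a result about the set.

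**Figure D1:**
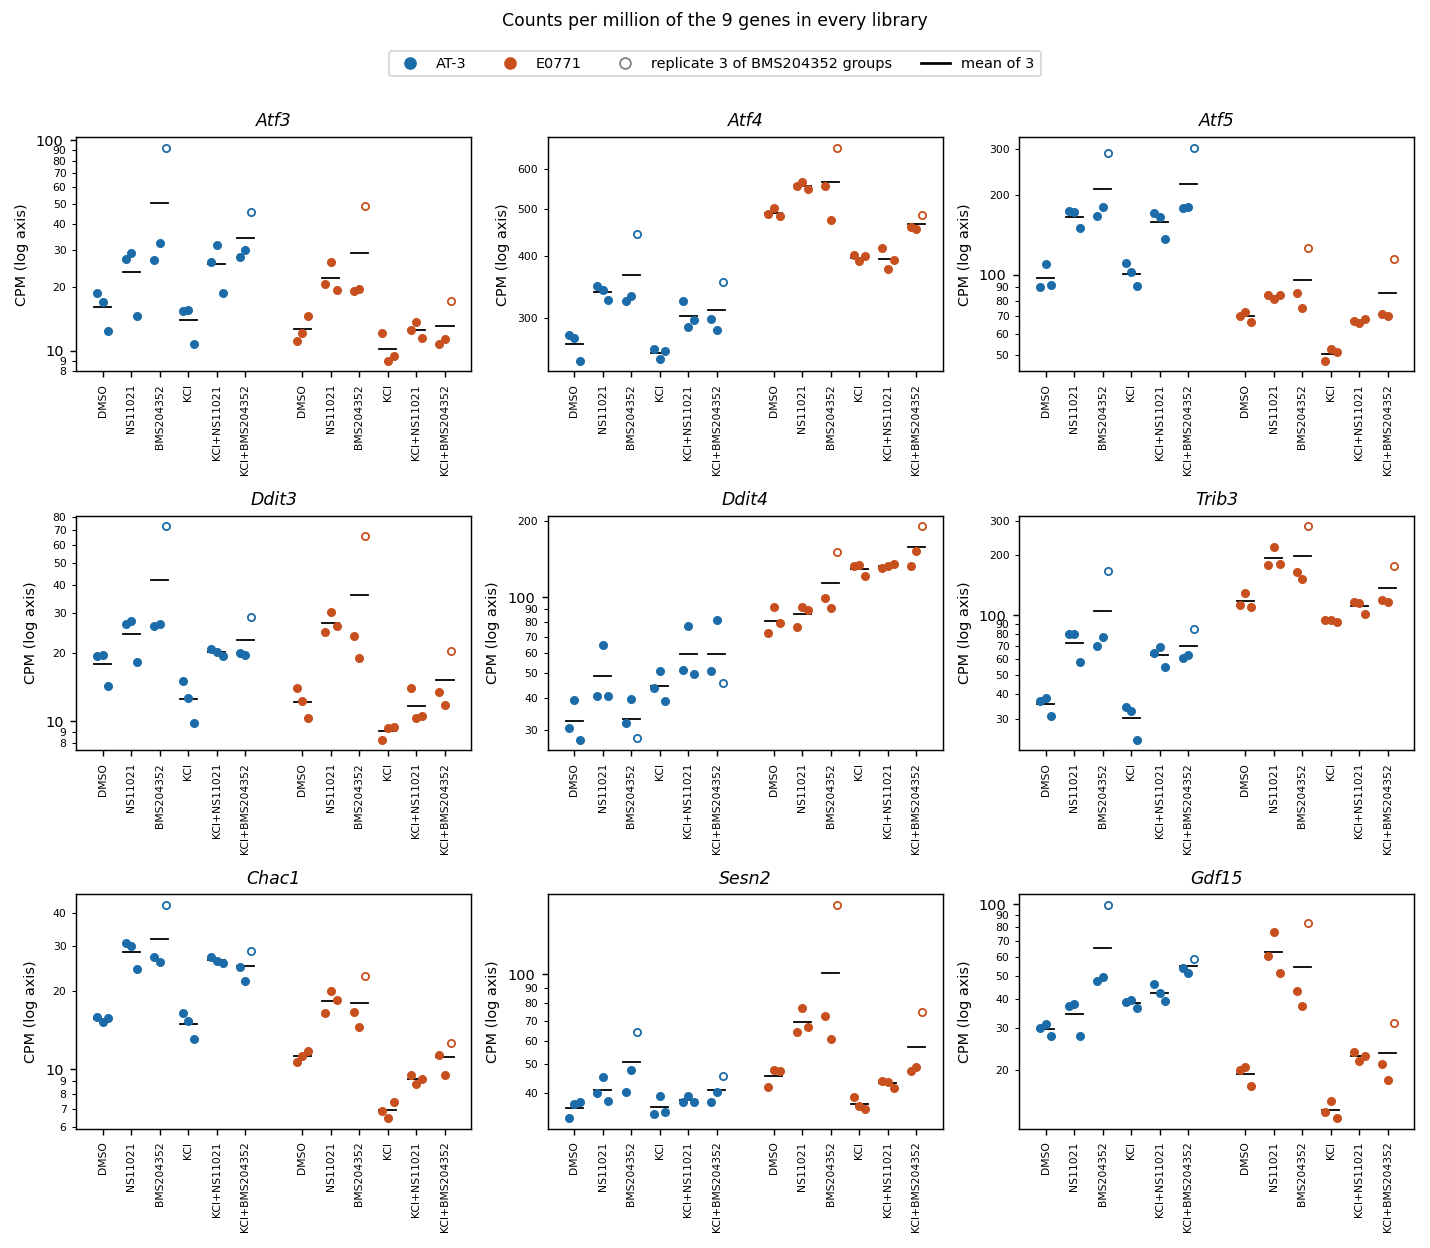
Level of each of the 9 genes in every library, in CPM on a log axis, for the 6 treatments of AT-3 (blue) and E0771 (orange); black lines are means of 3 libraries and open points are replicate 3 of the BMS204352 groups. The open points are the highest of their group except for Ddit4 in AT-3, and in E0771 the means with KCl alone lie below those of DMSO except for Ddit4.

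The lines differed in how much of these mRNAs they held in DMSO. Per kilobase of exon and per M counts (RPKM), Atf4 was the most abundant of the 9 in both lines, at 112 ± 7.20 in AT-3 and 208 ± 4.22 in E0771 (SD, n = 3), and Atf3 the least, at 7.47 ± 1.52 and 5.88 ± 0.815. In AT-3 the order below Atf4 was Atf5 (48.9 ± 5.52), Ddit4 (18.4 ± 3.48), Trib3 (16.7 ± 1.81), Gdf15 (16.1 ± 0.921), Ddit3 (10.4 ± 1.80), Sesn2 (10.3 ± 0.687) and Chac1 (9.55 ± 0.201). The ranges of the neighbours Ddit4, Trib3 and Gdf15 overlapped, as did those of Ddit3, Sesn2 and Chac1. In E0771 the order was Trib3 (55.2 ± 4.95), Ddit4 (46.1 ± 5.61), Atf5 (35.0 ± 1.58), Sesn2 (13.2 ± 0.939), Gdf15 (10.3 ± 1.0), Ddit3 (7.13 ± 1.06) and Chac1 (6.85 ± 0.347), with overlap between Trib3 and Ddit4 and among Ddit3, Chac1 and Atf3.

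In DMSO, Trib3 was 3.31-fold higher in E0771 than in AT-3 (log2 difference 1.73 ± 0.27, SE; adjusted p = 2.8e-06), Ddit4 2.50-fold (1.32 ± 0.23; adjusted p = 1.1e-05) and Atf4 1.85-fold (0.89 ± 0.10; adjusted p = 3.5e-09). Trib3, a pseudokinase that restrains ATF4 and AKT, stood at 36.9, 38.3 and 31.1 CPM in AT-3 and at 112, 129 and 110 CPM in E0771. Chac1 was 1.40-fold and Gdf15 1.55-fold lower in E0771 (log2 differences −0.48 ± 0.16 and −0.63 ± 0.27; adjusted p = 0.0078 and 0.035). The Gdf15 difference lost its call in 5 of 6 cases when a library was left out (adjusted p up to 0.098), the exception being replicate 3 of AT-3. Thus 5 of the 9 genes differed, at a background of 74.5% of all genes tested, and without the 4 libraries 8 of 9 did, at a background of 75%: Atf5 and Ddit3 were then called lower and Sesn2 higher in E0771, while Atf3 was not called (adjusted p = 0.18). A share of the members near the background is not a result about them.

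The potassium channel openers raised part of the set in both lines and lowered none of the 9 past the threshold: BMS204352 raised 6 genes in each line, and NS11021 4 in E0771 and 0 in AT-3 with all libraries. In E0771, NS11021 raised Gdf15 3.27-fold, Ddit3 2.22-fold, Trib3 1.65-fold and Chac1 1.64-fold, and 4 of 9 genes were called against 26.3% of all genes tested in either direction. With the 4 libraries left out, 8 of 9 were called higher against 31.2%, all but Ddit4. None of the 4 belongs to the groups compared, but leaving them out narrows the shared spread of these 9 genes. The added calls depend on that choice and are not a result about the set. The median log2 change over the 9 genes was 0.71, and that over all genes tested was 0.00.

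Gdf15, a secreted cytokine of the TGF-β superfamily that signals through GFRAL and RET in the hindbrain, had the largest log2 change of the 9 with NS11021 in E0771. It stood at 19.9, 20.5 and 17.0 CPM in DMSO, at 60.8, 76.4 and 51.4 CPM with NS11021, and at 42.9, 37.1 and 83.3 CPM with BMS204352. Every library of either compound lay above every DMSO library. The log2 changes were 1.71 ± 0.29 with NS11021 (adjusted p = 0.00081) and 1.52 ± 0.29 with BMS204352 (adjusted p = 0.0024), and the second fell to 1.07 ± 0.14 without the 4 libraries (adjusted p = 6.1e-05). Both calls held when any one library was left out.

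Ddit3, whose protein CHOP forms dimers with C/EBP factors and is tied to cell death, stood in E0771 at 14.0, 12.3 and 10.4 CPM in DMSO, at 24.9, 30.3 and 26.3 CPM with NS11021 and at 23.8, 19.1 and 65.7 CPM with BMS204352. The compound libraries did not overlap DMSO. NS11021 changed it by 1.15 ± 0.39 on the log2 scale (adjusted p = 0.046, and 1.1e-09 without the 4 libraries), and this call was lost when any of the 6 libraries compared was left out, with adjusted p up to 0.14. With BMS204352 the log2 change was 1.58 ± 0.39 (adjusted p = 0.011), and 0.81 ± 0.13 without the 4 libraries (adjusted p = 1.5e-05), 1.76-fold instead of 2.98-fold.

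Chac1, which breaks down glutathione, was called with each compound in E0771. In E0771 it stood at 10.6, 11.2 and 11.8 CPM in DMSO, at 16.5, 20.0 and 18.5 CPM with NS11021 and at 16.6, 14.5 and 23.0 CPM with BMS204352, with no overlap between DMSO and either compound. The log2 changes were 0.71 ± 0.13 (adjusted p = 0.00014) and 0.69 ± 0.13 (adjusted p = 0.00029; 0.48 ± 0.12 without the 4 libraries), and both calls held with each library left out. Trib3 in E0771 rose from 112, 129 and 110 CPM in DMSO to 178, 222 and 182 CPM with NS11021 (log2 change 0.73 ± 0.22, adjusted p = 0.025). With BMS204352 it reached 166, 152 and 281 CPM (0.77 ± 0.22, adjusted p = 0.021), and 0.44 ± 0.10 without the 4 libraries (adjusted p = 0.01). Both Trib3 calls were lost without DMSO replicate 1 or 3, the first also without NS11021 replicate 2 and the second without BMS204352 replicate 3 (adjusted p up to 0.1 and 0.09).

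BMS204352 raised 6 of the 9 genes in E0771 with all libraries, at a background of 22.7% of genes in either direction, and 7 of 9 without the 4, at 19%. Besides Gdf15, Ddit3, Chac1 and Trib3 these were Atf3, a repressor and activator of the ATF family, and Sesn2, a sestrin that restrains mTORC1 when leucine is scarce. When the fit held only the libraries of BMS204352 and DMSO, 1 of the 9 was called. Sesn2 stood at 42.0, 47.8 and 47.6 CPM in DMSO and at 72.5, 60.6 and 170 CPM with BMS204352. Its log2 change was 1.16 ± 0.31 with all libraries and 0.55 ± 0.08 without the 4 (adjusted p = 0.019 and 3.8e-06), and the first call was lost without any 1 of the DMSO libraries (adjusted p up to 0.07). With NS11021 it reached 64.0, 77.0 and 66.6 CPM, above every DMSO library (0.59 ± 0.31; adjusted p = 0.19 with all libraries and 3.7e-08 without the 4). Atf3 moved from 11.2, 12.2 and 14.6 CPM in DMSO to 19.3, 19.8 and 48.5 CPM with BMS204352, a log2 change of 1.22 ± 0.33 (adjusted p = 0.017), or 0.63 ± 0.13 without the 4 libraries (adjusted p = 0.00064). The call with all libraries was lost without DMSO replicate 1 or 2 (adjusted p up to 0.071).

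The upstream factors Atf4 and Atf5 moved less than the genes above in E0771, the line of all values in this paragraph. Atf4 mRNA in E0771 stood at 487, 501 and 482 CPM in DMSO, 556, 565 and 548 CPM with NS11021, and 556, 474 and 664 CPM with BMS204352. NS11021 libraries lay above all DMSO libraries and BMS204352 libraries did not. The log2 changes were 0.18 ± 0.08 and 0.21 ± 0.08 (adjusted p = 0.13 and 0.088), and without the 4 libraries 0.19 ± 0.04 and 0.08 ± 0.05 (adjusted p = 0.0015 and 0.29). Atf5, whose mRNA is under the same translational control, had log2 values of 0.25 ± 0.19 with NS11021 and 0.46 ± 0.19 with BMS204352 (adjusted p = 0.39 and 0.11), and was called for both without the 4 libraries (0.25 ± 0.05 and 0.20 ± 0.06; adjusted p = 0.00016 and 0.01).

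In AT-3, calls for NS11021 were made only without the 4 libraries, none of which belongs to its groups, and concerned Chac1, Trib3, Atf5 and Atf4. With NS11021, Chac1 moved from 15.9, 15.3 and 15.7 CPM in DMSO to 30.8, 29.8 and 24.4 CPM, 1.83-fold (log2 change 0.87 ± 0.16). Trib3 moved from 36.9, 38.3 and 31.1 CPM to 80.1, 79.9 and 58.1 CPM, 2.07-fold (1.05 ± 0.30), and Atf5 from 90.0, 110 and 92.0 CPM to 174, 173 and 150 CPM, 1.72-fold (0.78 ± 0.23). Atf4 went from 277, 273 and 246 CPM to 349, 342 and 326 CPM, 1.29-fold (0.37 ± 0.11). The NS11021 libraries of these 4 genes did not overlap DMSO, nor did those of Sesn2 and Ddit4, with no share of all genes to set beside this. With all libraries edgeR called 0 of the 9 genes (adjusted p = 0.068 for Chac1 and 0.37 to 0.47 for Trib3, Atf5 and Atf4), at a background of 0.0745%, while 5 had an unadjusted p below 0.05 and DESeq2 called 1. Without the 4 libraries all 4 were called (adjusted p = 5.2e-06 for Chac1, 0.0003 for Atf4, 0.0007 for Atf5 and 0.0081 for Trib3), against 0.971% of all genes, and the fold changes kept their size. These calls depend on leaving the 4 out, which narrows the shared spread of the 9 genes.

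The other 5 genes were not called with NS11021 in AT-3 in either fit. Gdf15 stood at 30.2, 31.3 and 27.9 CPM in DMSO and 37.4, 37.9 and 27.8 CPM with NS11021, overlapping, with a log2 change of 0.22 ± 0.23 (adjusted p = 0.87, and 0.35 without the 4 libraries). Ddit3 (0.46 ± 0.36) and Atf3 (0.57 ± 0.45) overlapped DMSO too, and Sesn2 had a log2 value of 0.21 ± 0.13. Ddit4, also called REDD1, an inhibitor of mTORC1, had a log2 value of 0.61 ± 0.26 (adjusted p = 0.61, and 0.42 without the 4 libraries). Its 3 AT-3 libraries of a group differed in the same way throughout: replicate 2 was the highest and replicate 3 the lowest in 6 of 6 groups, for example 40.8, 64.8 and 40.8 CPM with NS11021 beside 30.5, 39.2 and 27.4 CPM in DMSO. Replicate 3 of AT-3 was also the lowest for Atf3, Ddit3, Trib3 and Gdf15 in 4 of 4 groups without BMS204352. With the replicate number as a block in the fit, Ddit4 was called for NS11021 (0.59 ± 0.08; adjusted p = 0.0013).

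BMS204352 raised 6 of the 9 genes in AT-3 with all libraries, at a background of 5.27%: Trib3, Gdf15, Atf5, Chac1, Sesn2 and Atf4. Leaving out the 4 libraries gave 5 calls, at 2.99%, with Sesn2 falling out (0.30 ± 0.09; adjusted p = 0.057). A fit on the libraries of BMS204352 and DMSO alone called 0 of the 9. Trib3 reached 70.0, 77.6 and 167 CPM, a log2 change of 1.58 ± 0.30 with all libraries and 1.06 ± 0.17 without the 4 (adjusted p = 0.014 and 0.0045). Gdf15 reached 47.3, 49.3 and 99.4 CPM, above every DMSO library, 1.15 ± 0.23 and 0.70 ± 0.10 (adjusted p = 0.016 and 8.2e-05). With single libraries left out, Trib3 and Atf4 lost their call without DMSO replicate 3, Gdf15 without DMSO replicate 1 or 3, Atf5 without these or BMS204352 replicate 3, Sesn2 without any DMSO library or BMS204352 replicate 3, and Chac1 in no case. Atf3 and Ddit3 were highest in replicate 3, and their log2 changes of 1.67 ± 0.45 and 1.26 ± 0.36 (adjusted p = 0.051 and 0.062) came down to 0.89 ± 0.30 and 0.59 ± 0.18 without the 4 libraries (adjusted p = 0.2 and 0.11). Ddit4 was at 31.7, 39.5 and 27.9 CPM beside 30.5, 39.2 and 27.4 CPM in DMSO, with overlapping ranges (0.04 ± 0.26; adjusted p = 0.96).

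**Figure D2:**
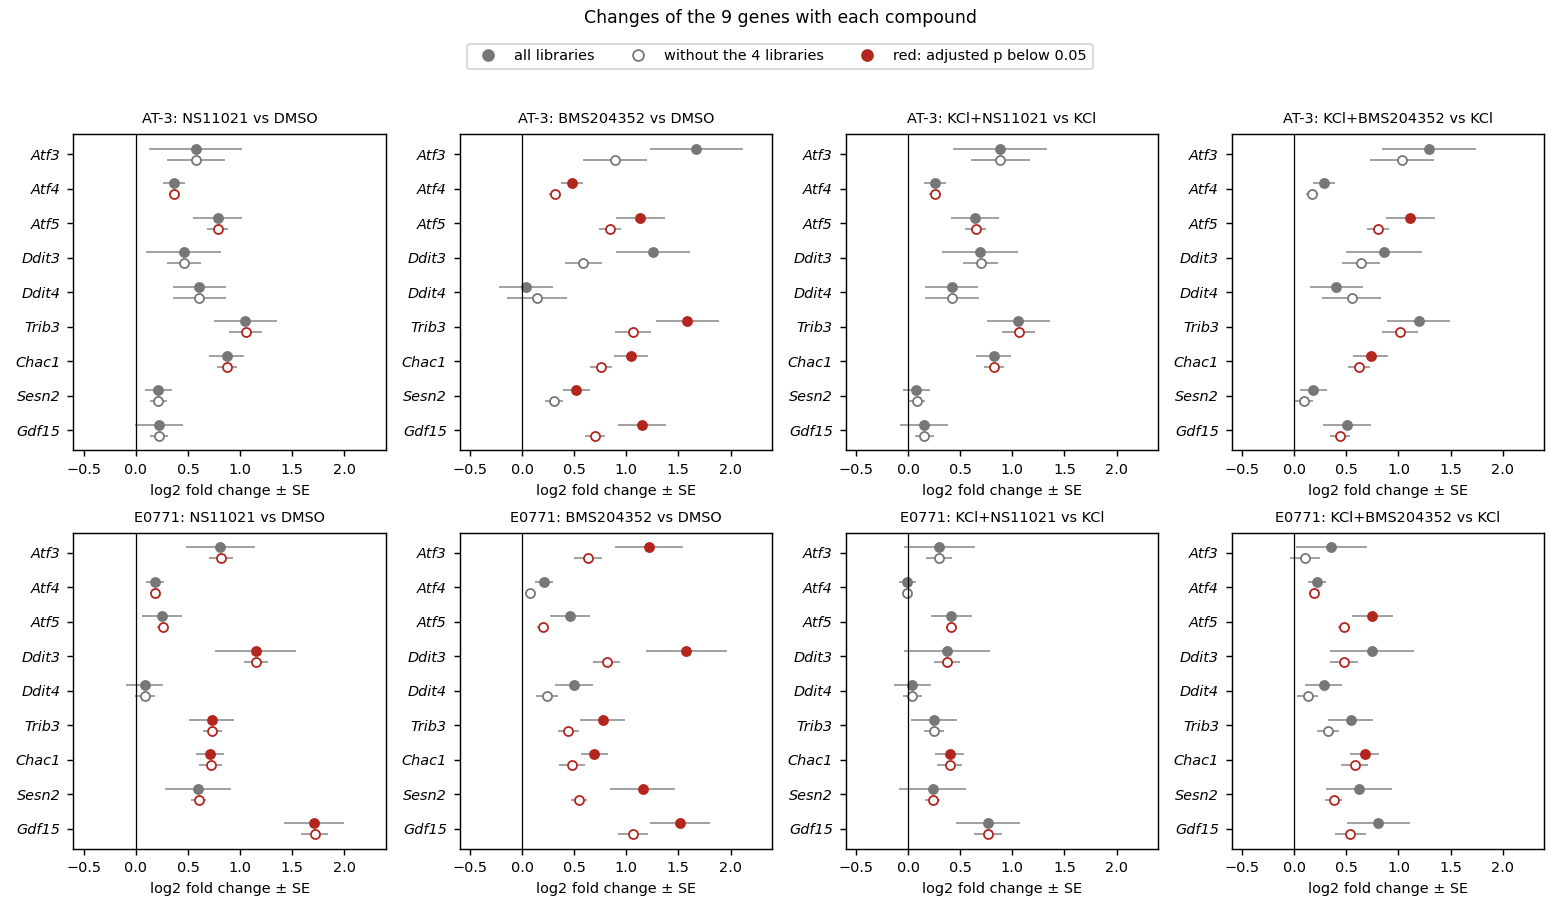
Log2 fold change with its standard error for each gene, compound against DMSO (left 4 panels) and compound with KCl against KCl (right 4 panels), AT-3 above and E0771 below; filled points use all libraries, open points leave out replicate 3 of the 4 BMS204352 groups, and red marks an adjusted p below 0.05. With NS11021 the open points sit on the filled ones with shorter bars, and with BMS204352 they lie closer to 0 for most genes; Gdf15 stands at 1.71 with NS11021 in E0771 and at 0.22 in AT-3.

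In E0771, KCl lowered Chac1 and Atf4 and raised Ddit4. Chac1 fell from 10.6, 11.2 and 11.8 CPM in DMSO to 6.88, 6.46 and 7.50 CPM, with no overlap (log2 change −0.68 ± 0.14; adjusted p = 0.00023), and Atf4 from 487, 501 and 482 CPM to 402, 391 and 401 CPM (−0.29 ± 0.08; adjusted p = 0.014), a call lost without KCl replicate 2 (adjusted p = 0.051). Ddit4 rose at the same time, from 72.2, 91.6 and 79.0 CPM to 133, 134 and 121 CPM, 1.61-fold (0.69 ± 0.18; adjusted p = 0.0089). With all libraries 3 of the 9 genes were called, 1 higher and 2 lower, against 36.4% of all genes, a share near the background and so no result about the set. Leaving out the 4 libraries, again none of them in the groups compared, gave 8 calls against 40.2%, Ddit4 higher and 7 lower. The added calls depend on that choice, which narrows the shared spread of the 9 genes, and are not a result about the set. The 5 genes added were Atf5 (−0.46 ± 0.05), Gdf15 (−0.50 ± 0.14), Ddit3 (−0.43 ± 0.12), Trib3 (−0.31 ± 0.09) and Sesn2 (−0.30 ± 0.07). Their libraries did not overlap DMSO, which describes these libraries only, with no share of all genes to set beside it. Gdf15 for example stood at 13.2, 14.8 and 12.5 CPM with KCl. Atf3 was not called (−0.29 ± 0.12 without the 4 libraries; adjusted p = 0.062).

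In AT-3, edgeR called 0 of the 9 genes with KCl at a background of 4.83%; 0 had an unadjusted p below 0.05 and DESeq2 called 0. Log2 values ran from −0.50 ± 0.36 for Ddit3 to 0.47 ± 0.26 for Ddit4. Ddit4 stood at 30.5, 39.2 and 27.4 CPM in DMSO and 43.6, 51.0 and 39.0 CPM with KCl, higher with KCl at each replicate number though the ranges overlap, and a fit with a replicate block called it (0.48 ± 0.08; adjusted p = 0.00047). When the 4 libraries were left out 1 gene was called, at 8.95%: Gdf15, at 30.2, 31.3 and 27.9 CPM in DMSO and 38.6, 39.7 and 36.4 CPM with KCl, was 1.29-fold higher (0.36 ± 0.09; adjusted p = 0.0098). Chac1 in AT-3 stood at 16.4, 15.4 and 13.1 CPM with KCl, overlapping DMSO (−0.06 ± 0.17; adjusted p = 0.92).

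The KCl effect itself was compared between the lines in a fit to both. With all libraries edgeR called 0 of the 9 differences at a background of 9.13%, with 2 at an unadjusted p below 0.05 and 0 called by DESeq2. In the fit without the 4 libraries 4 were called at 13.2%, all more negative in E0771: Gdf15 (log2 difference −0.85 ± 0.17; adjusted p = 0.00075), Chac1 (−0.60 ± 0.15; adjusted p = 0.0052), Atf5 (−0.51 ± 0.11; adjusted p = 0.0023) and Atf4 (−0.23 ± 0.07; adjusted p = 0.028).

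**Figure D3:**
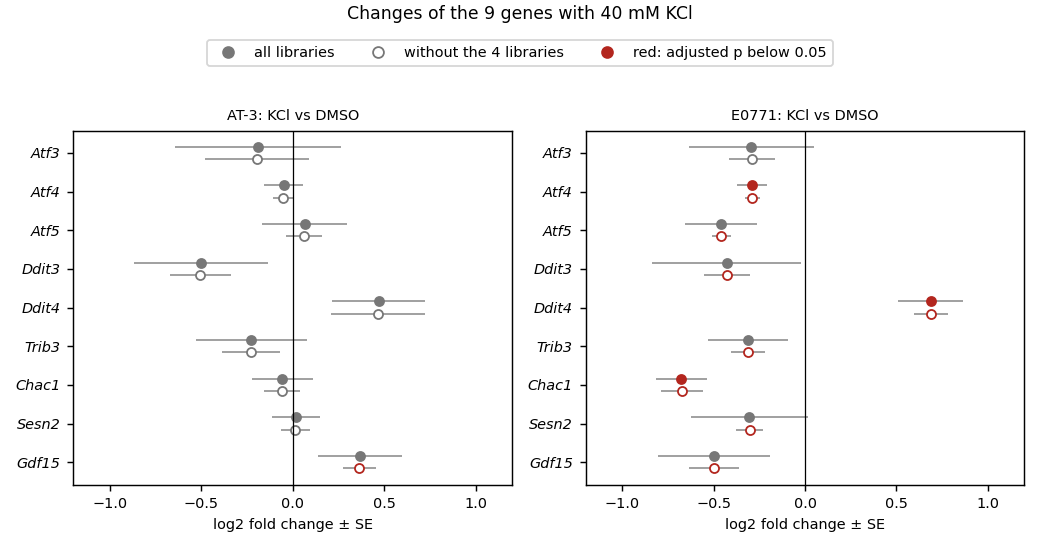
Log2 fold change with its standard error for each gene, 40 mM KCl against DMSO, in AT-3 (left) and E0771 (right); filled points use all libraries, open points leave out replicate 3 of the 4 BMS204352 groups, and red marks an adjusted p below 0.05. In E0771 Ddit4 lies at 0.69 while the other 8 lie below 0, from −0.68 for Chac1 to −0.29.

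On top of KCl, few of the 9 genes were called with all libraries: 0 and 2 in AT-3 and 1 and 2 in E0771, for NS11021 and BMS204352. In E0771 these shares are near the background or below it and are not a result about the set. In AT-3 with NS11021, Trib3 went from 34.2, 32.7 and 23.6 CPM with KCl to 64.5, 69.0 and 54.5 CPM (log2 change 1.06 ± 0.30), Chac1 from 16.4, 15.4 and 13.1 CPM to 27.0, 26.2 and 25.8 CPM (0.82 ± 0.17), and neither overlapped. With all libraries edgeR called 0 of 9 at a background of 0.0203%, with 4 at an unadjusted p below 0.05 and 1 called by DESeq2. Without the 4 libraries 4 were called at 0.259%, Chac1 (adjusted p = 2.5e-05), Atf5 (0.0073), Trib3 (0.013) and Atf4 (0.028), the 4 called with NS11021 alone. BMS204352 on KCl raised Atf5 and Chac1 in AT-3 (1.11 ± 0.23 and 0.73 ± 0.17; adjusted p = 0.04 for each) at a background of 1.24%. Chac1 lost that call when any of the 6 libraries was left out and Atf5 in 5 of the 6 cases. Without the 4 libraries Trib3 and Gdf15 joined them at 1.82% (1.02 ± 0.17 and 0.44 ± 0.10; adjusted p = 0.013 and 0.017), and a replicate block added Ddit4 (0.37 ± 0.08; adjusted p = 0.01).

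In E0771 on KCl, NS11021 raised Chac1 from 6.88, 6.46 and 7.50 CPM to 9.50, 8.77 and 9.18 CPM (log2 change 0.40 ± 0.14; adjusted p = 0.049) and 1 of 9 genes was called at a background of 17.2%; this call too was lost with any library left out. With the 4 libraries left out 5 were called at 23.1%, Atf5, Gdf15, Chac1, Sesn2 and Ddit3. BMS204352 on KCl raised Atf5 and Chac1 (0.75 ± 0.20 and 0.68 ± 0.14; adjusted p = 0.017 and 0.00066) at a background of 19.9%, and 6 genes without the 4 libraries at 18.1%. Chac1 kept that call with every library left out in turn, and Atf5 lost it without KCl replicate 1 or KCl with BMS204352 replicate 3 (adjusted p up to 0.076). In E0771 with KCl and BMS204352, Gdf15 stood at 21.2, 18.1 and 31.5 CPM, above KCl alone. The value of 18.1 CPM lay inside the DMSO range of 17.0 to 20.5 CPM and the others above it.

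Whether KCl altered the effect of a compound was asked of the interaction. In AT-3, edgeR called 0 of 9 genes for either compound, with 0 at an unadjusted p below 0.05 and 0 called by DESeq2, where 0% of all genes were called with all libraries, and 0% (NS11021) and 0.0399% (BMS204352) without the 4. In E0771, edgeR called 0 of 9 for NS11021 at a background of 0.217% (1 at an unadjusted p below 0.05, 0 by DESeq2). In the fit without the 4 libraries 2 were called at 1.74%: the effect of NS11021 was smaller in KCl for Gdf15 (interaction −0.95 ± 0.19; adjusted p = 0.016) and Ddit3 (−0.78 ± 0.17; adjusted p = 0.01). Gdf15 in E0771 rose 3.28-fold with NS11021 in medium without added KCl and 1.70-fold on KCl in that fit. For KCl with BMS204352, edgeR called 0 of 9 at 1.62% (0 at an unadjusted p below 0.05, 0 by DESeq2) and 0 of 9 without the 4 libraries at 2.74%.

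NS11021 and BMS204352, both at 10 µM for 24 h, were compared directly in 4 pairs of groups over 9 genes, with p-values adjusted over all genes of each comparison. Of the 36 differences 1 was called, Gdf15 in AT-3 without KCl, where NS11021 gave 37.4, 37.9 and 27.8 CPM and BMS204352 47.3, 49.3 and 99.4 CPM. The groups did not overlap, and NS11021 was 1.91-fold lower (log2 difference −0.93 ± 0.23, 95% interval −1.43 to −0.43; adjusted p = 0.048). Without the 4 libraries it was 1.40-fold lower (−0.48 ± 0.10; adjusted p = 0.0075), again the 1 gene of 9 called; the backgrounds were 2.94% and 1.78%. The call with all libraries was lost when any NS11021 library was left out, and with a replicate block (adjusted p = 0.063), a fit that called Ddit4 as higher with NS11021 (0.55 ± 0.08; adjusted p = 0.0003). In AT-3 without KCl, 5 of the 9 genes had an unadjusted p below 0.05 in edgeR with all libraries, and DESeq2 called 1. In E0771 the Gdf15 difference was not called with all libraries (0.19 ± 0.27, interval −0.40 to 0.79; adjusted p = 0.83), and its sign turned without BMS204352 replicate 2 (−0.019). It was 0.65 ± 0.14 without the 4 libraries, 1.57-fold higher with NS11021 (adjusted p = 0.022). The BMS204352 library left out held the highest Gdf15 of its group, 83.3 CPM beside 42.9 and 37.1 CPM. This call therefore depends on leaving out that library and is not a separate result. With all libraries edgeR called 0 of 9 in E0771 at a background of 1.76% (1 at an unadjusted p below 0.05, 0 by DESeq2), and without the 4 Gdf15 was the 1 called at 2.31%.

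For the genes that were not called, the intervals set how large a difference these libraries allow. For Chac1 the 95% interval of NS11021 minus BMS204352 was −0.52 to 0.16 in AT-3 and −0.25 to 0.28 in E0771 on the log2 scale, and for Atf4 −0.34 to 0.11 and −0.21 to 0.15. For Atf3 the intervals were wide, −2.05 to −0.14 and −1.10 to 0.28. In KCl, edgeR called 0 of 9 differences in AT-3 at a background of 0.454% (0 at an unadjusted p below 0.05, 0 by DESeq2) and 0 without the 4 libraries at 0.705%. In E0771 on KCl it called 0 of 9 at 4.95% (2 at an unadjusted p below 0.05, 1 by DESeq2), and 1 without the 4 libraries at 7.94%, Atf4, which was lower with NS11021 (−0.20 ± 0.05; adjusted p = 0.0094).

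**Figure D4:**
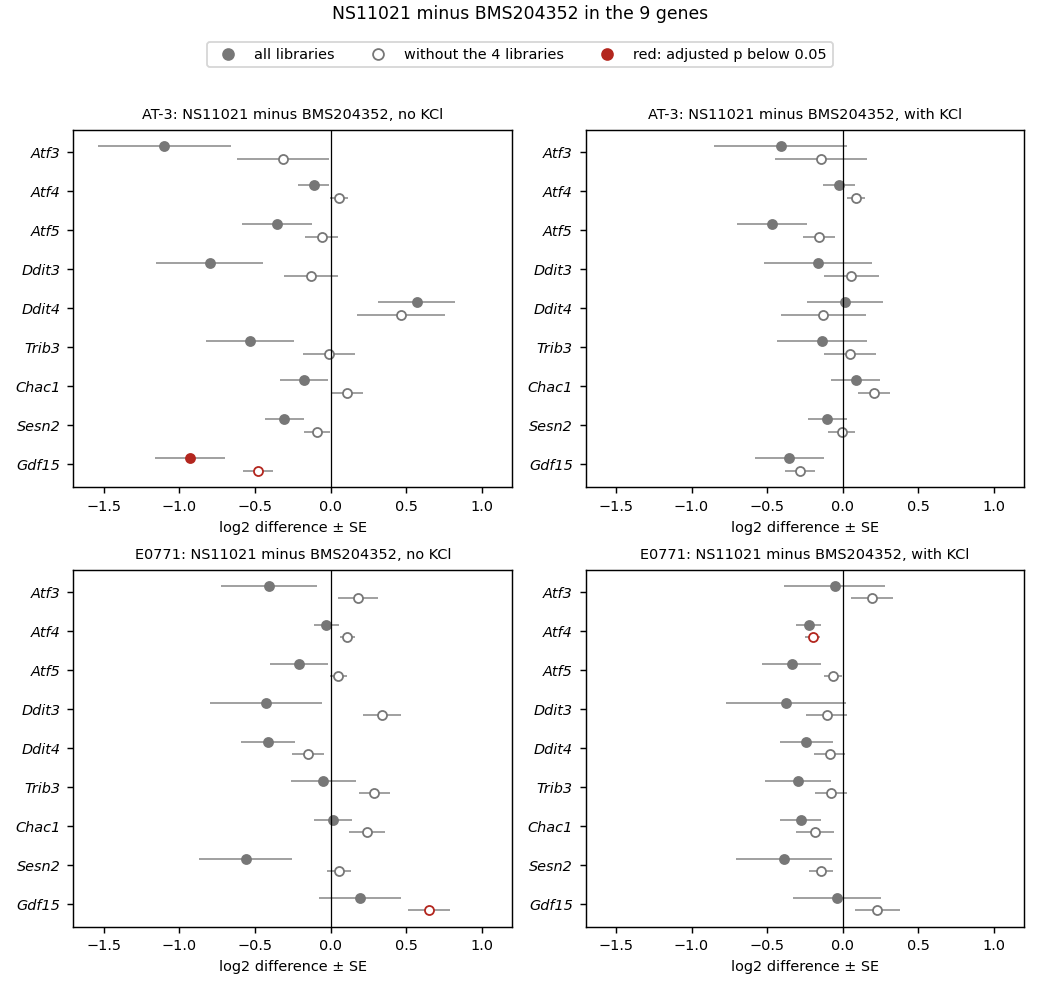
Log2 difference with its standard error, NS11021 minus BMS204352, for each gene without KCl (left) and with KCl (right), AT-3 above and E0771 below; filled points use all libraries, open points leave out replicate 3 of the 4 BMS204352 groups, and red marks an adjusted p below 0.05. Gdf15 without KCl lies at −0.93 in AT-3 and at 0.19 in E0771, and leaving out the 4 libraries moves most points to the right.

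The compound effects were also compared between the lines. The NS11021 effect on Gdf15 was larger in E0771 than in AT-3 by 1.48 ± 0.37 on the log2 scale (adjusted p = 0.023), and by 1.51 ± 0.16 without the 4 libraries (adjusted p = 1.3e-06). It was the 1 of 9 genes called at a background of 3.99%, and its adjusted p rose to 0.08 at most when a library was left out, with the call lost in 4 of 12 cases. With the 4 libraries left out 4 genes were called at 7.42%: the effect on Gdf15, Ddit3 (0.71 ± 0.22) and Sesn2 (0.40 ± 0.11) was larger in E0771 and that on Atf5 (−0.51 ± 0.11) larger in AT-3. For BMS204352 edgeR called 0 of 9 at 5.01% (2 at an unadjusted p below 0.05, 0 by DESeq2), and without the 4 libraries 1 at 3.51%, Atf5, with the larger effect in AT-3 (−0.63 ± 0.13; adjusted p = 0.0029).

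Genes on which ATF4 acts for amino acid supply and tRNA charging are given beside the members. The comparisons with KCl, NS11021 and BMS204352 share their DMSO libraries, so they are given side by side and not as independent results. The shares of all genes called, to be read beside each list count, were 0.0745% (NS11021) and 5.27% (BMS204352) in AT-3, and 26.3% (NS11021), 22.7% (BMS204352) and 36.4% (KCl) in E0771. Of 15 amino acid and one-carbon enzyme genes, NS11021 raised 3 in AT-3 with all libraries and 12 without the 4 (median log2 change 0.50 in both, 0.00 over all genes), among them Pck2 (0.70 ± 0.10; adjusted p = 0.005) and Aldh18a1 (0.56 ± 0.08; adjusted p = 0.005), which makes a precursor of proline. BMS204352 raised 9 of 15 in AT-3 (median 0.50) and 8 without the 4 (0.34). In E0771, where 13 of the list were tested, NS11021 raised 10 (11 without the 4 libraries; median 0.34 and 0.35) and BMS204352 11 (11; 0.45 and 0.29), led by Got1 (0.45 ± 0.06 with either compound). KCl lowered 11 of the 13 (12 without the 4; median −0.41), among them Asns (−0.47 ± 0.05; adjusted p = 1.7e-09) and Pycr1 (−1.34 ± 0.15; adjusted p = 3.5e-07), the last step to proline.

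Of 13 tRNA synthetase and export genes, edgeR called 0 with NS11021 in AT-3 with all libraries (13 at an unadjusted p below 0.05, 5 by DESeq2), and all 13 as higher without the 4, at a median log2 change of 0.28 and 0.29, for example Gars (0.40 ± 0.05 without the 4 libraries). BMS204352 raised 7 of 13 in AT-3 (6 without the 4), and in E0771 NS11021 raised 8 and lowered 1 (12 and 1) while BMS204352 raised 12 (10). KCl lowered 10 of 13 in E0771 (12 without the 4), with a median of −0.25 (−0.24), among them Lars (−0.51 ± 0.06) and Yars (−0.45 ± 0.04). Of the 11 amino acid carriers, NS11021 raised Slc7a5, part of the large neutral amino acid exchanger, in AT-3 (0.70 ± 0.10; adjusted p = 0.005), 1 gene with all libraries and 6 without the 4; KCl lowered Slc7a5 in E0771 (−0.72 ± 0.04; adjusted p = 1.6e-14). In that line the glutamine carrier Slc38a2 went the other way, higher with KCl (0.91 ± 0.05; adjusted p = 6.5e-14) and lower with NS11021 (−0.45 ± 0.05; adjusted p = 3e-07). Among other ATF4 and CHOP targets, Nupr1 in E0771 rose with KCl, NS11021 and BMS204352 (0.64 ± 0.14, 0.52 ± 0.14 and 0.66 ± 0.14).

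Genes of the unfolded protein response of the ER, a neighbouring pathway that shares the kinase PERK, had a median log2 change of 0.08 with NS11021 and 0.10 with BMS204352 in AT-3. Of 20, BMS204352 raised 1 in AT-3, Xbp1 (0.34 ± 0.08; adjusted p = 0.017), and NS11021 raised 1, Herpud1 (0.47 ± 0.08; adjusted p = 0.036), which is also an ATF4 target. In E0771, NS11021 raised 2 and lowered 8 (3 and 9 without the 4 libraries; median −0.09), among those lowered Hspa5, the chaperone BiP (−0.32 ± 0.04; adjusted p = 7.9e-07), Syvn1 (−0.37 ± 0.05) and Dnajc3 (−0.41 ± 0.06). BMS204352 lowered 4 of 20 in E0771, a share under the background of 22.7%, and 5 without the 4 libraries, when it also raised 2. Of 13 genes for the eIF2 kinases, the eIF2 phosphatase and eIF2B, NS11021 raised 2 and lowered 4 in E0771, where Eif2b3, a subunit of the eIF2 exchange factor, rose with NS11021 (0.39 ± 0.07) and fell with KCl (−0.76 ± 0.08).

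**Figure D5:**
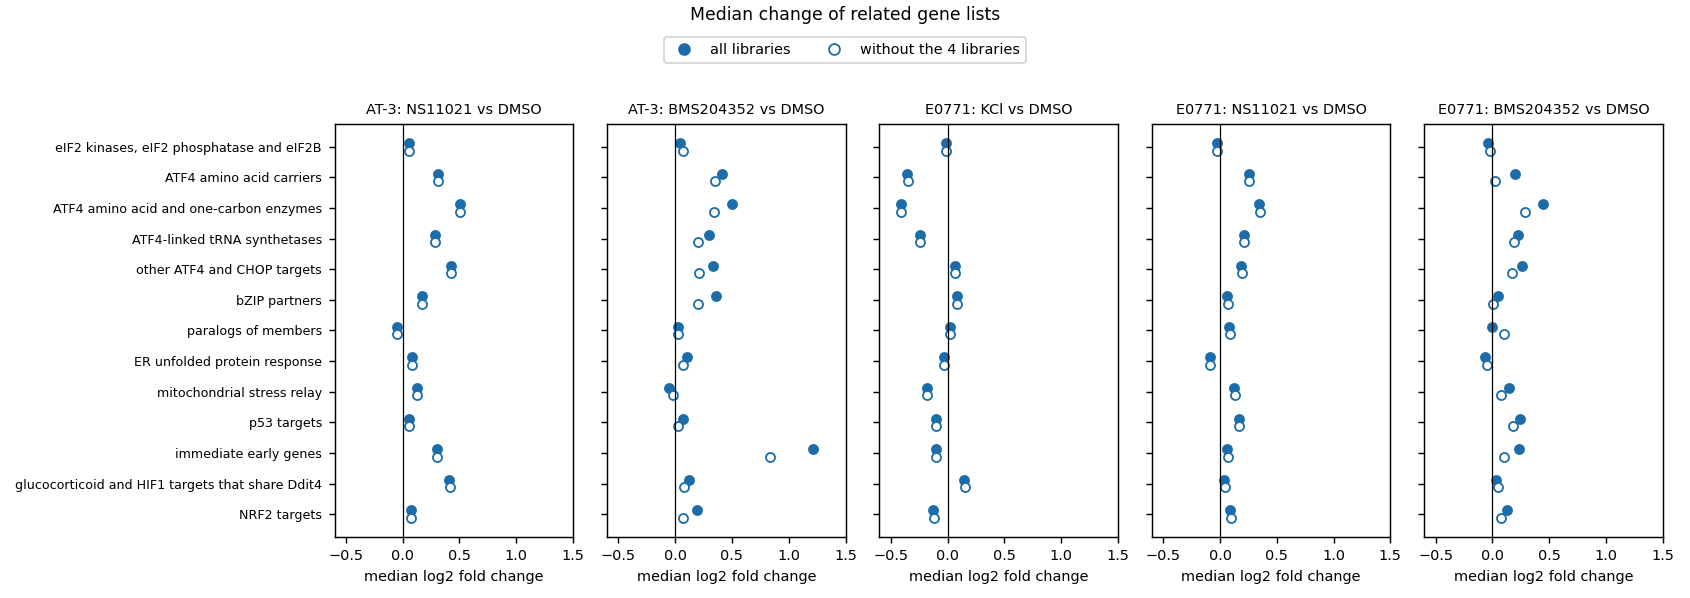
Median log2 fold change against DMSO of 13 related gene lists, members excluded, in 5 comparisons; filled points use all libraries and open points leave out replicate 3 of the 4 BMS204352 groups. The amino acid enzyme list lies at 0.50 with NS11021 in AT-3, 0.34 in E0771 and −0.41 with KCl in E0771, while the ER list lies between −0.09 and 0.10, and the immediate early genes reach 1.21 with BMS204352 in AT-3 (0.83 without the 4 libraries).

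Across the 36 libraries, after the mean of each line was taken off, log2 CPM of the members moved together except for Ddit4. These correlations are descriptions over libraries that share groups and treatments. The pairs without Ddit4 ran from 0.70 (Atf5 with Gdf15) to 0.93 (Atf3 with Trib3, and Atf4 with Chac1), while Ddit4 had values between −0.23 (with Atf4) and 0.16 (with Atf5). Without the 4 libraries the pairs without Ddit4 ran from 0.62 (Atf5 with Gdf15) to 0.92 (Trib3 with Chac1). Ddit4 then had values between −0.28 (with Atf4) and 0.18 (with Atf5). Among 9653 genes, the pattern most like that of Trib3 was Fam129a (r = 0.96), followed by Asns (0.93) and Eif4ebp1 (0.93). Chac1 was closest to Aldh18a1, Gars and Eif3c (0.96 each), Atf4 to Eif3c (0.95), Hspa9 (0.95) and Aars (0.94), and Atf5 to Fam129a (0.93), Trib3 (0.91) and Asns (0.90). Ddit3 was closest to Cyb5r1 (0.96), Acot2 and Hspa9, Sesn2 to Sel1l (0.95; 0.87 without the 4 libraries), Cdsn and Cyb5r1, Atf3 to Trib3, Sars and Fam129a, and Gdf15 to Mib2 (0.93), Eps8 and Arhgef2. For Ddit4 the nearest were Oplah (0.82), Spred2 and Rbm33, so that no gene followed it as closely as the other members were followed.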

How the data were processed

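Whole-number counts per gene were taken as deposited for 36 libraries of AT-3 and E0771 cells (12 groups of 3, matched by title). STAR, featureCounts and the GRCm38 build are named in the submitters' processing notes; no source used here gives their versions or the counting strand. The labels' protocols name a Qiagen RNeasy extraction and a NuGen Universal Plus mRNA library kit. Left out were 2 IDs of human form (6 counts). Of counts from 1 to 10, 84.5% were even, so halved counts were also tested. CPM (per M of library total) and RPKM (exon length from GENCODE vM21) were computed from the counts. In R 4.3.3 with edgeR 4.0.16, genes were filtered with filterByExpr, scaled with TMM normalization (factors 0.984 to 1.02 in AT-3 and 0.990 to 1.01 in E0771) and tested by robust quasi-likelihood per line over 18 libraries (14772 genes in AT-3, 13357 in E0771), and over all 36 (15969 genes) for differences between lines, with Benjamini-Hochberg adjustment and a threshold of 0.05. The biological coefficient of variation was 0.116 in AT-3 and 0.0707 in E0771. Values after ± are SE of log2 changes or SD of 3 libraries. Alternatives were DESeq2 1.42.0 (Wald test), its size factors, no filter, halved counts, a replicate block, a fit on only the groups compared, and leaving out replicate 3 of the 4 BMS204352 groups or each library in turn. The code was tested on simulated data. Named genes are the 9 members, up to 3 genes per list and comparison with the smallest adjusted p among those called, and the 3 genes nearest each member by correlation; Gars with NS11021 in AT-3 was named after its values were seen. The members, lists and alternatives were chosen with earlier results of these data known.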

Additional observations from a re-analysis of the deposited data

Results flagged for a closer look

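The effect of NS11021 on Gdf15 differed between the lines. The log2 change was 1.71 in E0771 (CPM of 19.9, 20.5 and 17.0 in DMSO, and 60.8, 76.4 and 51.4 with NS11021) and 0.22 in AT-3 (30.2, 31.3 and 27.9, and 37.4, 37.9 and 27.8), and the difference in the fit to both lines was 1.48 ± 0.37 (SE; adjusted p = 0.023 with edgeR's quasi-likelihood test). Markers of cell type differed between the lines as well, in both directions. Summed markers of mammary epithelium stood at 1990 to 2870 CPM in AT-3 and 140 to 228 CPM in E0771. In DMSO, Krt14 was at 1449 CPM in AT-3 and 0.105 CPM in E0771, and Cdh1 at 450 and 1.41 CPM. Krt5, Epcam, Krt18 and Krt19 were also higher in AT-3, and Krt8 alone was higher in E0771, at 0.349 and 202 CPM. Summed fibroblast markers were higher in E0771, at 216 to 259 CPM beside 37.2 to 69.7 CPM. The part of these markers in the Gdf15 difference was not tested. Groups of 3 libraries are too small for the outlier check used here.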

How the results depend on the processing

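Of the 22 counts of members called, leaving out replicate 3 of the 4 BMS204352 groups moved 15 by over 1.5 times: to 1 for KCl in AT-3, 4 for NS11021 in AT-3, 4 for NS11021 on KCl and 4 for BMS204352 on KCl in AT-3, 8 for KCl and 8 for NS11021 in E0771, 5 and 6 for NS11021 and BMS204352 on KCl in E0771, 1 for either comparison of the compounds in E0771, 2 for the interaction of KCl and NS11021 in E0771, and 8, 4, 4 and 1 for the line differences in DMSO, KCl, NS11021 and BMS204352. With only the groups compared in the fit, the counts in AT-3 were 1 (KCl), 4 (NS11021), 0 (BMS204352), 1 (NS11021 on KCl), 0 (NS11021 against BMS204352) and 1 (the same on KCl). In E0771 they were 8 (KCl), 8 (NS11021), 1 (BMS204352), 6 and 4 (NS11021 and BMS204352 on KCl), 1 (the compounds on KCl) and 4 (KCl and NS11021), and for line differences 9 (DMSO), 4 (KCl) and 2 (NS11021). DESeq2's Wald test gave 1 for NS11021 and 1 for NS11021 on KCl in AT-3, and 2, 4 and 1 for NS11021 on KCl, BMS204352 on KCl and the compounds on KCl in E0771. No filter gave 0 for BMS204352 on KCl and 0 for NS11021 against BMS204352 in AT-3; DESeq2 size factors and halved counts each gave 0 for NS11021 on KCl in E0771. The cause was not tested. The labels give no meaning to the replicate numbers, and 4 of 90 same-number correlations were above 0.1, of which 3 joined the BMS204352 groups with and without KCl in AT-3. In AT-3 the third principal component (6.69% of variance) ordered the libraries as replicate 2, 1, 3 in 6 of 6 groups, so the numbers may mark a shared effect in that line. With a replicate block, 1 member was called for KCl and 1 for NS11021 in AT-3, Ddit4 in both (0.48 and 0.59), and no other count moved by over 1.5 times. Leaving out 1 library at a time gave 1 to 8 (AT-3, BMS204352), 0 to 1 (BMS204352 on KCl), 0 to 2 (NS11021 against BMS204352), 2 to 3 (E0771, NS11021), 3 to 9 (BMS204352), 0 to 0 (NS11021 on KCl), 1 to 2 (BMS204352 on KCl) and 0 to 1 (line difference in NS11021). Of single members called under any setting, 1 changed direction: Gdf15 for NS11021 against BMS204352 in E0771 was −0.019 without replicate 2 of BMS204352 (0.19 as reported, and 0.65 at most, without replicate 3). A fit without the 4 libraries has 2 libraries in each BMS204352 group. The lowest value of a member rested on 216 counts, and the part of depth in the calls was not tested.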

Other observations

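Immediate early genes, which growth factor and calcium signals induce and among which Atf3 is often counted, rose with BMS204352 in AT-3: 12 of 15 were called with all libraries (median log2 change 1.21) and 9 without replicate 3 of the 4 BMS204352 groups (0.83), led by Ier2 (0.70 ± 0.09, SE; adjusted p = 0.00025), Egr2 (1.45 ± 0.23; adjusted p = 0.0018) and Junb (0.56 ± 0.10; adjusted p = 0.0028) in edgeR's quasi-likelihood test. In E0771 KCl raised 3 of 14 and lowered 7, with Ier3 (1.67 ± 0.06; adjusted p = 1.2e-17) and Dusp1 (2.37 ± 0.12; adjusted p = 1.6e-11) among those raised and Klf4 (−0.88 ± 0.09; adjusted p = 2.7e-08) among those lowered. The shares of all genes called in E0771, to be read beside each count, were 36.4% with KCl, 26.3% with NS11021 and 22.7% with BMS204352, and in AT-3 5.27% with BMS204352. Of 15 targets of p53, a factor to which Sesn2 and Gdf15 also respond, BMS204352 raised 6 in E0771 (3 without the 4 libraries) and lowered 2, KCl raised 2 and lowered 4, and NS11021 raised 2 and lowered 1.

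Of 11 genes with glucocorticoid or hypoxia control, as Ddit4 has, KCl raised 5 and lowered 0 in E0771, where 36.4% of all genes were called in either direction. Among the 5 were Bnip3 (0.73 ± 0.10; adjusted p = 2.9e-07), Sgk1 (0.62 ± 0.11; adjusted p = 5e-05) and Per1 (0.43 ± 0.08; adjusted p = 6.4e-05). Of 9 genes of the mitochondrial stress relay, KCl lowered 5 in E0771, led by the chaperonin pair Hspd1 (−0.41 ± 0.04; adjusted p = 3.1e-10) and Hspe1 (−0.47 ± 0.04; adjusted p = 8.8e-10), against 36.4% of all genes called, and NS11021 raised 3, a share near the background of 26.3%, led by Hspa9 (0.31 ± 0.06; adjusted p = 0.00046).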
